A study of Mus musculus with 6 samples.

Results

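Transcript levels of 7 transcription factors that define the acinar cell and the pancreatic epithelium, Ptf1a, Rbpjl, Bhlha15, Nr5a2, Gata4, Gata6 and Pdx1, were read in the newborn mouse pancreas. Every probe named for one of them on the array was taken, without regard to its values, which gave 9 probes among 55681: 2 each for Rbpjl and Nr5a2 and 1 for each of the others. The 6 samples were whole pancreata of C57BL/6N mice at postnatal day 0.5, with 2 samples for each of 3 genotypes. In Spink3-/- mice both copies of Spink3, the gene of a trypsin inhibitor made by acinar cells, are inactive, and by the study's design every acinar cell undergoes a death that is not apoptotic and shows autophagy. In Spink3-/-XKI/+ mice, which lack Spink3 in the same way and carry 1 copy of an allele called XKI that the labels do not explain, part of the acinar cells are described as normal. Spink3+/+ mice were the control. The comparisons ask whether the factors that keep acinar cells differentiated change in amount when these cells die.

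PTF1A is the basic helix-loop-helix subunit of PTF1, a complex in which it pairs with an E protein and with RBPJ in the early pancreas or RBPJL in the mature acinar cell, and which binds the control regions of digestive enzyme genes. NR5A2, an orphan nuclear receptor, acts with PTF1 on many of these genes, and BHLHA15, also called MIST1, directs the build-up of the secretory apparatus. GATA4 and GATA6 are zinc finger factors needed for pancreas formation, and GATA6 helps to maintain the acinar state in adult mice. PDX1 is a homeodomain factor of all pancreatic progenitors that becomes abundant in beta cells and stays at low levels in acinar cells.

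All levels below are log2 processed signals relative to the 75th percentile of the same array, so 0 is that percentile. A level sets the same probe side by side between arrays and is not used to rank genes. Signals well above background made up 42.4% to 50.8% of the spots of an array, and all 9 probes were well above background on all 6 arrays. The correlation between arrays was 0.971 to 0.984 across probes. The targeted gene followed its labels: Spink3 had levels of 3.25 and 2.95 in Spink3-/-, 2.64 and 2.34 in Spink3-/-XKI/+, and 9.84 and 10.26 in Spink3+/+. The labels do not say whether this probe lies in the deleted part. Precision is limited by having 2 arrays a genotype. The labels do not state that a genotype's 2 samples are different animals, so the p-values below reflect sample-to-sample spread that may be no more than technical. The tissue is a mixture of cells, so fewer cells of a type and less RNA per cell cannot be told apart.

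The probes of Ptf1a and of a second Rbpjl transcript are printed because the results on the PTF1 complex rest on what they hybridise to. Both match exons on the plus strand, at chr2:19368720-19368779 for Ptf1a and chr2:164236749-164236808 for Rbpjl (build mm9, from the array files).
Ptf1a probe A_51_P226711: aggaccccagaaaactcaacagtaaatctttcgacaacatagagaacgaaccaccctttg
Rbpjl probe A_55_P1988689: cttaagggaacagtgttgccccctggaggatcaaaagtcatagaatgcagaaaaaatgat
The second Rbpjl probe, A_52_P574759, lies further along the gene at chr2:164240195-164240254 (plus strand). The 2 Nr5a2 probes both match 1 RefSeq transcript on the minus strand, A_55_P2142908 from its base 2109 (chr1:138741712-138741771) and A_51_P514449 from its base 2918 (chr1:138740903-138740962). The Bhlha15 probe A_52_P340669 lies at chr5:144955175-144955234 (plus strand), where every forward reading frame holds a stop codon, outside the coding part. The remaining probes lie at chr14:63817858-63817917 for Gata4 (A_55_P2028894, minus strand) and chr5:148086570-148086629 for Pdx1 (A_52_P31510, plus strand), exonic in the files' annotation. The Gata6 probe is A_51_P411917.

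Rbpjl is itself a known target of PTF1 in the mouse, and its promoter is shown because its level is set beside that of Ptf1a below. The RefSeq window from 250 bases before to 50 bases after its start is chr2:164402944-164403243 (plus strand, build GRCm38.p6). Capitals mark an RBPJ box (TGGGAA), 2 E-boxes (CANNTG) and a GATA motif (GATAAG), searched on both strands and not overlapping.
Rbpjl promoter: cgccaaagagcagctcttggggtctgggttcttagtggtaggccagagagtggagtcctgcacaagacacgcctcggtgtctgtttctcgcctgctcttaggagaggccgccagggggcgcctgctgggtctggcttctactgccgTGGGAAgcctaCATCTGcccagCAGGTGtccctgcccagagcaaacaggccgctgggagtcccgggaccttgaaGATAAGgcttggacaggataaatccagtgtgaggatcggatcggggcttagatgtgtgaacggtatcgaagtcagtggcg
The RBPJ box starts 104 bases before the transcript start and the first E-box 93 bases before it, a distance of 11 bases. An RBPJ box with an E-box starting within 20 bases of it was found in 3.88% of 32851 mouse promoter windows of this length, an RBPJ box alone in 25.6%, an E-box in 72.3% and the GATA motif in 7.44%. The table held a promoter for 5 members, Ptf1a, Rbpjl, Bhlha15, Nr5a2 and Pdx1, and of these the pair was present in the Rbpjl window alone. The Ptf1a window held an RBPJ box 169 bases before the start and no E-box, while the Bhlha15 and Pdx1 windows held 3 E-boxes each and the 2 Nr5a2 windows 2 and 3, with no RBPJ box. The GATA motif was also present at 2 places in 1 of the Nr5a2 windows and at 1 place in the Bhlha15 window. These matches describe letters and say nothing about binding in these samples.

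None of the 7 factors changed detectably between the genotypes. By limma with Benjamini-Hochberg adjustment over 24820 probes, 0 of 9 probes passed an adjusted p of 0.05 in Spink3-/- against Spink3+/+, where 0.0443% of all probes did, and 0 of 9 had an unadjusted p under 0.05, against 4.92% of all probes. In Spink3-/-XKI/+ against Spink3+/+ it was 0 of 9 at both thresholds, against 0.00806% and 6.80% of all probes. Between Spink3-/- and Spink3-/-XKI/+ it was again 0 of 9 at both, against 0% and 6.50%. With so few probes called anywhere, the members' counts of 0 are near the background and set no member apart. The limma standard errors were 0.20 to 0.71 on the log2 scale, the widest for Pdx1, so the 95% intervals given below show how large a difference remains possible for each probe.

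**Figure D1:**
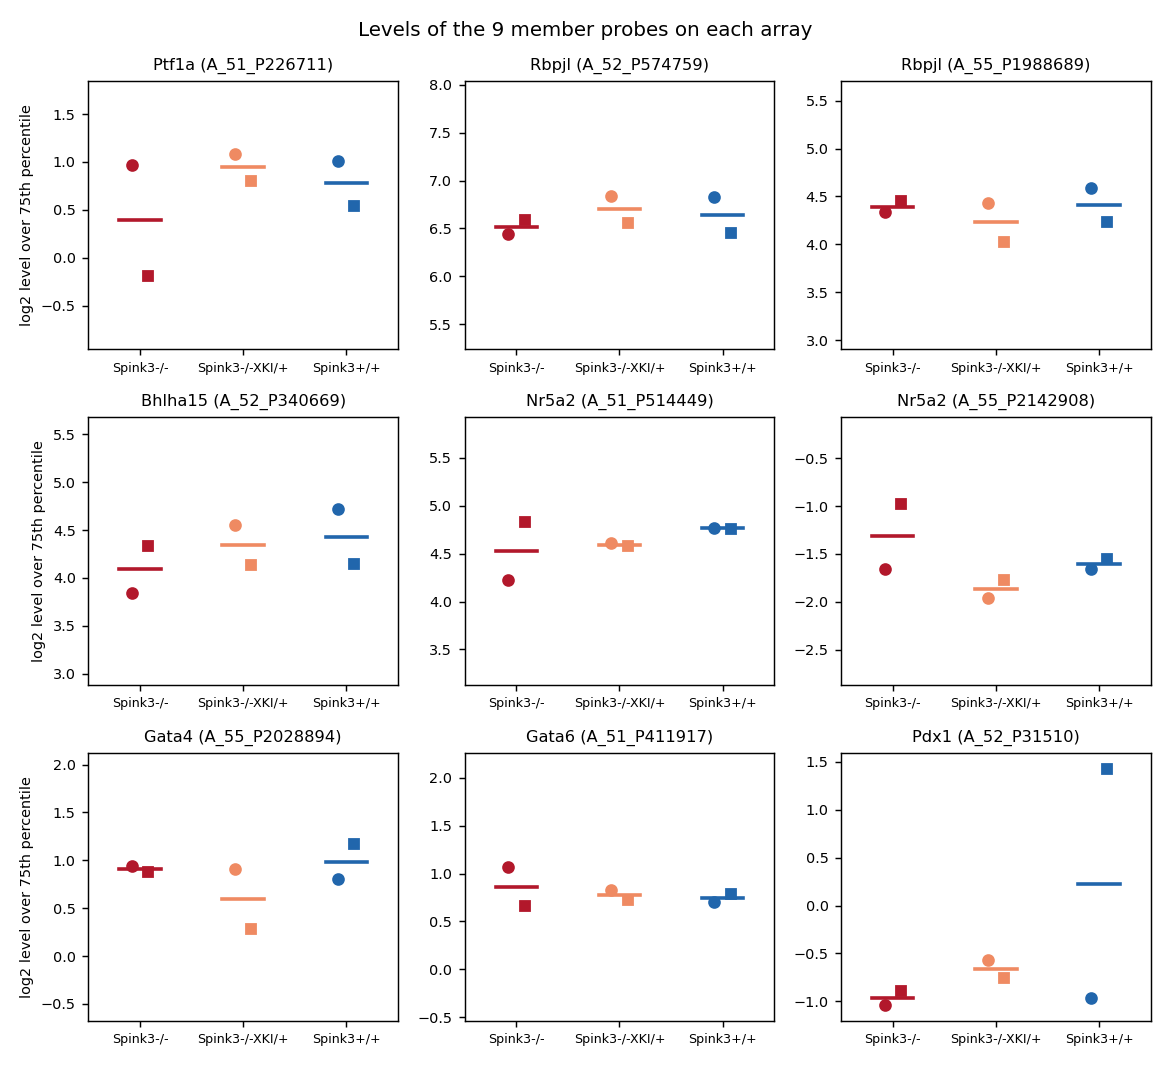
Levels of the 9 probes (log2 of the processed signal over the 75th percentile of the array) in Spink3-/-, Spink3-/-XKI/+ and Spink3+/+, with circles for replicate 1, squares for replicate 2 and bars for the mean of each genotype; every panel spans the same range of log2 units. The 2 points of a genotype lie far apart for Ptf1a in Spink3-/- and for Pdx1 in Spink3+/+, and the genotypes lie close together in the panels for Rbpjl and Gata6.

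Ptf1a, the subunit that gives PTF1 its cell type specificity, had levels of 0.97 and -0.19 in Spink3-/-, 1.09 and 0.80 in Spink3-/-XKI/+, and 1.01 and 0.54 in Spink3+/+. Replicate 2 of Spink3-/- was the lowest of the 6 arrays, and replicate 1 of Spink3-/- lay among the highest, so the groups overlapped in all 3 comparisons. The difference was -0.39 in Spink3-/- against Spink3+/+ (SE 0.40, 95% interval -1.37 to 0.59, limma adjusted p = 0.9918). It was 0.17 in Spink3-/-XKI/+ against Spink3+/+ (95% interval -0.81 to 1.15, limma adjusted p = 0.9495) and -0.55 in Spink3-/- against Spink3-/-XKI/+ (95% interval -1.53 to 0.43, limma adjusted p = 0.8928). The 2 Spink3-/- arrays differed by 1.16, or 2.23-fold, a gap that 3.99% of the tested probes exceeded in that genotype. Without replicate 2 of Spink3-/- the first difference was 0.19 and the last 0.03, and with the slide row as a block, which then sets replicate 1 of Spink3-/- alone against Spink3+/+ in the same row, it was also 0.19.

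Rbpjl, the acinar form of the RBPJ subunit of PTF1, was among the steadiest of the 7. Its probe A_52_P574759 had levels of 6.44 and 6.58 in Spink3-/-, 6.84 and 6.55 in Spink3-/-XKI/+, and 6.83 and 6.45 in Spink3+/+. The 6 arrays spanned 0.40, and 79% of all probes spanned more. The differences were -0.13 in Spink3-/- against Spink3+/+ (SE 0.21, 95% interval -0.65 to 0.40, limma adjusted p = 0.9918), 0.06 in Spink3-/-XKI/+ against Spink3+/+ (-0.46 to 0.58, limma adjusted p = 0.9688) and -0.19 in Spink3-/- against Spink3-/-XKI/+ (-0.71 to 0.34, limma adjusted p = 0.9778). The probe of the second transcript, A_55_P1988689, had levels of 4.33 and 4.45 in Spink3-/-, 4.43 and 4.03 in Spink3-/-XKI/+, and 4.59 and 4.24 in Spink3+/+. Its differences were -0.02, -0.18 and 0.16 in the same order (SE 0.23, limma adjusted p at least 0.8916), and the 95% interval of the first was -0.57 to 0.53. On both probes the level in replicate 2 of Spink3-/- was above that in replicate 1, the opposite order to Ptf1a. These gaps were small, and 74.8% and 79.5% of the tested probes had a larger one in that genotype. Before scaling to the 75th percentile the signals were lower in replicate 2, at 10654 against 13490 and 2425.2 against 3129.8. The genotypes overlapped in every comparison.

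Bhlha15 had levels of 3.85 and 4.33 in Spink3-/-, 4.56 and 4.14 in Spink3-/-XKI/+, and 4.72 and 4.14 in Spink3+/+. The lowest array was replicate 1 of Spink3-/-, but replicate 2 of that genotype was above 1 array of each of the others, and all groups overlapped. The differences were -0.34 in Spink3-/- against Spink3+/+ (SE 0.30, 95% interval -1.06 to 0.38, limma adjusted p = 0.9918), -0.09 in Spink3-/-XKI/+ against Spink3+/+ (-0.81 to 0.63, limma adjusted p = 0.9675) and -0.26 in Spink3-/- against Spink3-/-XKI/+ (-0.98 to 0.46, limma adjusted p = 0.9778). With 1 array left out the first ran between -0.63, without replicate 2 of Spink3+/+, and -0.053, without replicate 1 of Spink3+/+. The last ran between -0.50 and -0.012, without replicates 2 and 1 of Spink3-/-.

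Nr5a2 was read by 2 probes that did not move alike. The first, A_51_P514449, had levels of 4.23 and 4.83 in Spink3-/-, 4.61 and 4.58 in Spink3-/-XKI/+, and 4.77 and 4.76 in Spink3+/+. The lowest and the highest of the 6 arrays were the 2 Spink3-/- samples, and both Spink3-/-XKI/+ arrays were below both Spink3+/+ arrays. The differences were -0.23 in Spink3-/- against Spink3+/+ (SE 0.24, 95% interval -0.81 to 0.35, limma adjusted p = 0.9918), -0.17 in Spink3-/-XKI/+ against Spink3+/+ (-0.75 to 0.41, limma adjusted p = 0.9089) and -0.07 in Spink3-/- against Spink3-/-XKI/+ (-0.65 to 0.52, limma adjusted p = 0.9994).

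The second Nr5a2 probe, A_55_P2142908, was dimmer, with levels of -1.65 and -0.98 in Spink3-/-, -1.96 and -1.77 in Spink3-/-XKI/+, and -1.66 and -1.56 in Spink3+/+. Both Spink3-/- arrays were above both Spink3-/-XKI/+ arrays, and Spink3-/-XKI/+ was also below Spink3+/+ on every array. The difference in Spink3-/- against Spink3-/-XKI/+ was 0.55 (SE 0.26, 95% interval -0.08 to 1.19, limma adjusted p = 0.8149), with the lowest adjusted p of any member. It was 0.89 without replicate 1 of Spink3-/- and 0.21 without replicate 2. In Spink3-/- against Spink3+/+ it was 0.29 (-0.34 to 0.93, limma adjusted p = 0.9918), and in Spink3-/-XKI/+ against Spink3+/+ it was -0.26 (-0.89 to 0.38, limma adjusted p = 0.8672). The 2 probes thus had opposite signs in both comparisons of Spink3-/-, and their Spink3-/-XKI/+ values were the one point on which both gave non-overlapping groups.

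Over all 9 probes, 0 lay wholly above and 0 wholly below Spink3+/+ in Spink3-/-, where 16.9% of all probes lay wholly above and 15.3% wholly below. In Spink3-/-XKI/+ the 2 Nr5a2 probes lay wholly below Spink3+/+ and 0 wholly above, against 15.1% and 26.5% of all probes. Set against Spink3-/-XKI/+, 1 probe of Spink3-/- lay wholly above (Nr5a2 A_55_P2142908) and 1 wholly below (Pdx1), against 13.0% and 19.5% of all probes. With 9 probes, several of which read the same gene, these counts are given without a test.

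Gata4 had levels of 0.94 and 0.87 in Spink3-/-, 0.90 and 0.28 in Spink3-/-XKI/+, and 0.81 and 1.17 in Spink3+/+. Replicate 2 of Spink3-/-XKI/+ was the lowest array, and the Spink3-/- arrays lay between the 2 Spink3+/+ arrays. The differences were -0.08 in Spink3-/- against Spink3+/+ (SE 0.26, 95% interval -0.72 to 0.56, limma adjusted p = 0.9959), -0.39 in Spink3-/-XKI/+ against Spink3+/+ (-1.04 to 0.25, limma adjusted p = 0.824) and 0.31 in Spink3-/- against Spink3-/-XKI/+ (-0.33 to 0.95, limma adjusted p = 0.9217). The last was 2.9e-05 without replicate 2 of Spink3-/-XKI/+ and 0.63 without replicate 1, and the second was -0.082 and -0.71 without the same arrays.

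Gata6 varied as little as the first Rbpjl probe, with levels of 1.06 and 0.66 in Spink3-/-, 0.83 and 0.73 in Spink3-/-XKI/+, and 0.70 and 0.78 in Spink3+/+. Its highest and lowest arrays were both Spink3-/- samples, and the means were 0.86 ± 0.29, 0.78 ± 0.08 and 0.74 ± 0.06 in these genotypes (SD, n = 2 each). The difference was 0.12 in Spink3-/- against Spink3+/+ (SE 0.20, 95% interval -0.38 to 0.61, limma adjusted p = 0.9918). It was 0.04 in Spink3-/-XKI/+ against Spink3+/+ (-0.46 to 0.53, limma adjusted p = 0.981) and 0.08 in Spink3-/- against Spink3-/-XKI/+ (-0.41 to 0.58, limma adjusted p = 0.9994). Of the 9 probes it had the narrowest intervals.

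Pdx1 had levels of -1.03 and -0.89 in Spink3-/-, -0.57 and -0.76 in Spink3-/-XKI/+, and -0.97 and 1.43 in Spink3+/+. The other arrays lay close together and replicate 2 of Spink3+/+ stood far above them, with a processed signal of 343.1 against 70.7 in the other Spink3+/+ array. Both Spink3-/- arrays were below both Spink3-/-XKI/+ arrays, while each of these genotypes overlapped Spink3+/+. The 2 Spink3+/+ arrays differed by 2.39, or 5.25-fold, and only 0.471% of the tested probes differed more within that genotype. The differences were -1.19 in Spink3-/- against Spink3+/+ (SE 0.71, 95% interval -2.92 to 0.53, limma adjusted p = 0.9918), -0.89 in Spink3-/-XKI/+ against Spink3+/+ (-2.61 to 0.83, limma adjusted p = 0.8436) and -0.30 in Spink3-/- against Spink3-/-XKI/+ (-2.03 to 1.42, limma adjusted p = 0.9994). Without replicate 2 of Spink3+/+ the first was 0.0048 and the second 0.31.

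The high Pdx1 spot had a pixel mean of 384.3 and a pixel median of 367.5 over a local background of 27, and the scanner software did not mark it as an outlier. The same spot had pixel means of 103 to 136.6 on the other arrays. The 9 listed beta cell targets of PDX1, among them the insulin genes Ins1 and Ins2, did not share the high value. Replicate 2 minus replicate 1 of Spink3+/+ had a median of 0.01 over them. The highest value, 0.50, was that of Slc2a2, which was not above background on all arrays. The summed signal of 7 endocrine marker genes, in units of the 75th percentile, was 2631 in replicate 2 and 2628 in replicate 1 of Spink3+/+. No other probe reads Pdx1 on this array.

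**Figure D2:**
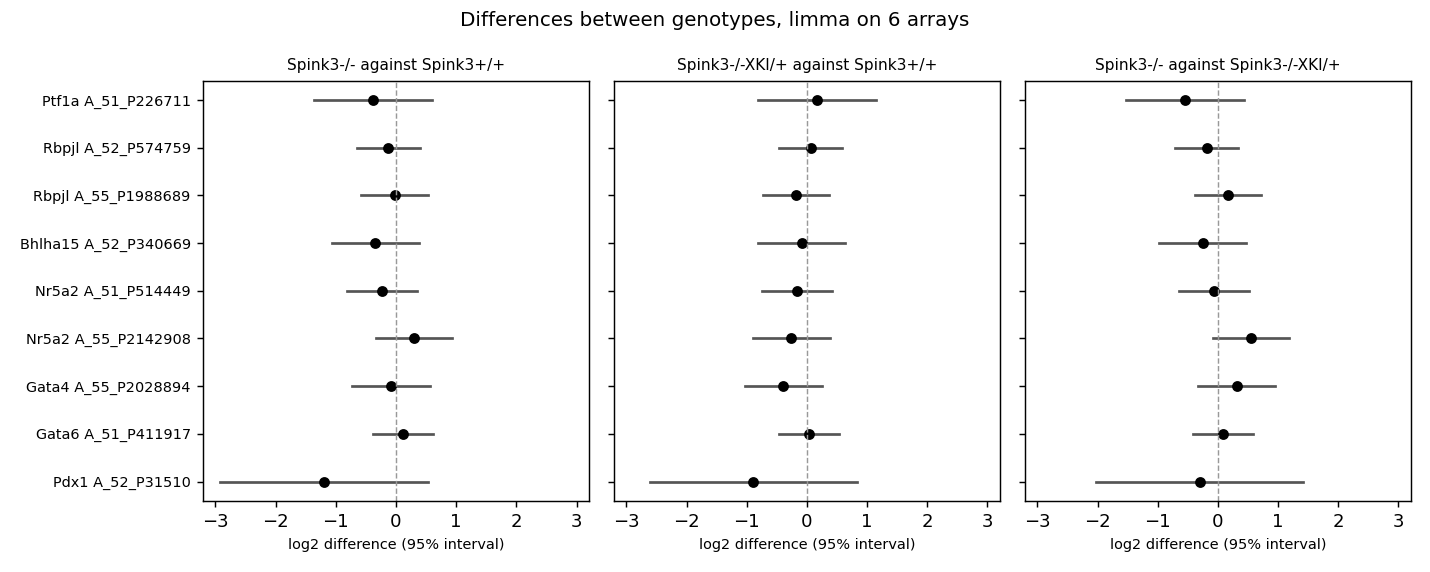
Log2 differences of the 9 probes with their 95% limma intervals for Spink3-/- against Spink3+/+ (left), Spink3-/-XKI/+ against Spink3+/+ (middle) and Spink3-/- against Spink3-/-XKI/+ (right), with a dashed line at 0. All 27 intervals include 0, and the 3 for Pdx1 are the widest.

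Over the set, 2 of 9 differences were positive and 7 negative in Spink3-/- against Spink3+/+, with a median of -0.13, beside 0.01 over all tested probes, of which 51.5% were positive. In Spink3-/-XKI/+ against Spink3+/+ 3 were positive and 6 negative, with a median of -0.17 beside 0.05 over all probes, of which 57.25% were positive. Between Spink3-/- and Spink3-/-XKI/+ 4 were positive and 5 negative, with a median of -0.07 beside -0.04 over all probes, of which 43.5% were positive. The comparisons with Spink3+/+ share the same control arrays, and the signs are not independent of each other. By their means, Spink3-/- was the lowest genotype for Ptf1a, Bhlha15, Pdx1, Rbpjl A_52_P574759 and Nr5a2 A_51_P514449, Spink3-/-XKI/+ the lowest for Gata4 and the other Rbpjl and Nr5a2 probes, and Spink3+/+ the lowest for Gata6. Neighbours in these orders overlapped, with the exception of Spink3-/-XKI/+ and Spink3+/+ for both Nr5a2 probes and of Spink3-/- and Spink3-/-XKI/+ for Pdx1, and no pair of neighbours passed the limma test.

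The members differed in how much they varied over the 6 arrays. The range over the arrays was 0.40 for both Gata6 and the first Rbpjl probe and 0.56 for the second Rbpjl probe, below or near the median of 0.64 over all probes. It was 0.61 and 0.99 for the Nr5a2 probes, 0.87 for Bhlha15, 0.89 for Gata4, 1.28 for Ptf1a and 2.46 for Pdx1. A wider range than that of Ptf1a was found in 13.7% of the tested probes and a wider one than that of Pdx1 in 2.7%. The scanner's own error estimate was 10% to 17.7% of the signal for the member spots, less than the 2.23-fold and 5.25-fold gaps of Ptf1a and Pdx1.

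Likeness between 2 probes was measured as the root-mean-square distance of their levels over the 6 arrays, each centred on its own mean. The 2 Rbpjl probes were 0.15 apart, and Rbpjl A_52_P574759 and Bhlha15 were as close, at 0.15. The brighter Nr5a2 probe followed at 0.21 from both. The 2 Nr5a2 probes were 0.28 apart. From the Rbpjl probes A_52_P574759 and A_55_P1988689, Nr5a2 A_51_P514449 was 0.21 and 0.23 away and Nr5a2 A_55_P2142908 0.39 and 0.32. Ptf1a was nearest to Gata6 among the members, at 0.39, and 0.41 from Rbpjl A_52_P574759, and Pdx1 was 0.75 or more from every member. The distance is not scaled for spread, so a steady gene can lie nearest. By the same measure Ptf1a was 0.44 from its own mean, hardly more than from Gata6. These distances describe 6 arrays and carry no test.

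Among 11159 genes above background on all arrays, Tcim, Ttc8 and Mab21l3 were the most like Ptf1a, at distances of 0.10, 0.12 and 0.15, and 15 genes lay within 0.2. Chosen for their likeness to Ptf1a, all 3 shared its low value in replicate 2 of Spink3-/-, which is no separate evidence for that value. Tcim had levels of 2.06 and 0.84 in Spink3-/-, 1.86 and 1.78 in Spink3-/-XKI/+, and 1.87 and 1.45 in Spink3+/+. For Pdx1 they were Zbtb8a, Il10rb and Itga3, at 0.20, 0.27 and 0.27, with 0 genes within 0.2. Each of these genes was highest in replicate 2 of Spink3+/+, which again follows from how they were chosen. Zbtb8a had levels of -1.45 and -1.74 in Spink3-/-, -1.19 and -1.24 in Spink3-/-XKI/+, and -1.15 and 0.98 in Spink3+/+. The steadier members had many neighbours within 0.2: 2947 genes for Rbpjl A_52_P574759 (nearest Tmem131l, Chchd5 and Zdhhc12) and 1859 for Rbpjl A_55_P1988689 (Golga3, Crls1 and Rnf103). There were 3509 for Gata6 (Slfn9 and Plat among the nearest), 2269 for Nr5a2 A_51_P514449 (Mvd and Ccdc166 among the nearest) and 270 for Nr5a2 A_55_P2142908 (Meig1, Padi2 and Slc22a18). Gata4 had 774 (Copz2, Anxa4 and P4hb) and Bhlha15 464 (Ankzf1, Hlcs and Zrsr1). Being near a steady gene says little, since many genes were steady.

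The genes that work with the members were read by their brightest probe, and beside Spink3 itself 0 of them passed the limma test in any comparison. At an unadjusted p under 0.05 stood 5, 5 and 3 of the 18 other epithelial factors in Spink3-/- against Spink3+/+, Spink3-/-XKI/+ against Spink3+/+ and Spink3-/- against Spink3-/-XKI/+, and 4 of the 28 acinar products in each, Spink3 itself among them. Over all probes the shares were 4.92%, 6.80% and 6.50% in the same order, below those of both lists, and the difference was not tested. These shares count every tested probe, whereas the lists hold only the brightest probe of each gene, so the sets are unlike. In the remaining lists it was at most 1 gene a comparison. The extremes named for each list are those among its genes above background on all 6 arrays. Of 14 partners and inhibitors of PTF1 and MIST1 (E proteins, ID proteins, Notch signalling genes, Rbpj and Xbp1), 13 were tested. Their median difference was -0.08 in Spink3-/- against Spink3+/+, beside -0.01 over all 14169 tested genes, with extremes of -0.30 for Heyl, a repressor downstream of Notch, and 0.27 for Notch1. In Spink3-/-XKI/+ against Spink3+/+ the median was -0.17 beside 0.04, from Id2 at -0.44, which blocks E proteins, to Tcf12, an E protein, at 0.40. For Spink3-/- against Spink3-/-XKI/+ it was 0.07 beside -0.04, from Heyl at -0.55 to Id2 at 0.36. Rbpj, whose place RBPJL takes in the mature complex, had differences of -0.09, 0.22 and -0.31.

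Of 22 other factors of the pancreatic epithelium, 18 were tested and their medians were 0.01, -0.01 and -0.11 in the 3 comparisons in the order above. Elf3, an epithelial ETS factor, had the highest difference of those above background on all arrays in Spink3-/- against Spink3+/+. Its levels were -0.51 and -1.11 in Spink3-/-, -1.80 and -1.78 in Spink3-/-XKI/+, and -1.80 and -1.87 in Spink3+/+. Both Spink3-/- arrays were above the other 4, by 1.03 over Spink3+/+ (SE 0.24, limma adjusted p = 0.72) and 0.98 over Spink3-/-XKI/+ (limma adjusted p = 0.5392), and neither passed the test. The lowest of those genes was Sox9, a factor of progenitors and ducts, at -0.65. Mecom, which was not above background on all arrays, was lower still, at -1.49 (limma adjusted p = 0.9918). In Spink3-/-XKI/+ against Spink3+/+ Foxa3, a forkhead factor, was highest at 0.68. Onecut2 was lowest in Spink3-/- against Spink3-/-XKI/+, at -1.12.

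The GATA family and its cofactors had 4 of 6 genes tested, with medians of -0.32, -0.01 and -0.24. The extremes were Zfpm1 at -0.41 and Gata5 at 0.01 in Spink3-/- against Spink3+/+, Gata2 at -0.24 and Zfpm2 at 0.24 in Spink3-/-XKI/+ against Spink3+/+, and Zfpm2 at -0.60 and Gata5 at 0.05 in Spink3-/- against Spink3-/-XKI/+. Zfpm1 and Zfpm2 encode the FOG proteins, which bind GATA factors. All 9 cofactors of PDX1 were tested, with medians of -0.03, 0.17 and -0.20. Here 8 of 9 were positive in Spink3-/-XKI/+ against Spink3+/+, with Meis3 lowest at -0.06, and 8 of 9 negative in Spink3-/- against Spink3-/-XKI/+, from Pbx2 at -0.58 to Meis3 at 0.03. Both comparisons use the same Spink3-/-XKI/+ arrays. Meis1 was lowest in Spink3-/- against Spink3+/+, at -0.35. PBX and MEIS proteins are homeodomain partners that bind DNA with PDX1.

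Of 8 partners and targets of NR5A2, 7 were tested, with medians of -0.14, -0.28 and -0.15. Of the genes above background on all arrays, Nr1h4, the bile acid receptor FXR, was lowest in all 3 comparisons, at -1.11, -0.80 and -0.31 (limma adjusted p = 0.9918, 0.802 and 0.9926). The highest of them were Nr5a1, the close relative of Nr5a2, at 0.24 and 0.25 in the comparisons with Spink3+/+, and Cel, a lipase gene, at 0.42 in Spink3-/- against Spink3-/-XKI/+. Prox1, a homeodomain factor that was not above background on all arrays, reached further, with 0.82, -0.98 and 1.80 (SE 1.31, limma adjusted p at least 0.8928).

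The digestive enzymes and other acinar products, the best known targets of PTF1 and NR5A2, had 28 of 31 genes tested. Spink3, which is on this list, was the 1 called gene, with -6.95 in Spink3-/- against Spink3+/+ (SE 0.24, limma adjusted p = 0.002096) and -7.56 in Spink3-/-XKI/+ against Spink3+/+ (limma adjusted p = 0.001254). The medians were -0.15, 0.02 and -0.12. In Spink3-/- against Spink3+/+ 21 of 28 were negative and 7 positive, with Amy1, an amylase gene, highest at 0.09. Pnlip, pancreatic lipase, was highest in Spink3-/-XKI/+ against Spink3+/+ at 1.09 and lowest in Spink3-/- against Spink3-/-XKI/+ at -2.50 (limma adjusted p = 0.2074). Amylase and trypsinogen genes have close copies, so their probes may read more than 1 gene.

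Within Spink3-/-, 23 of these 28 genes were higher in replicate 2 than in replicate 1, with a median of 0.32 beside 0.05 over all tested genes, the largest being 1.68 for Ctrc, a chymotrypsin. Ptf1a was lower by 1.16 in replicate 2 of the same genotype, while Bhlha15 and both probes each of Rbpjl and Nr5a2 were higher in replicate 2. In Spink3+/+, where Ptf1a was lower by 0.48 in replicate 2, 25 of 28 products were higher there, with a median of 0.16 beside 0.04. On this scale the level of Ptf1a RNA and that of most acinar products ran in opposite order within these 2 genotypes. In Spink3-/-XKI/+ they ran in the same order, Ptf1a being lower by 0.29 in replicate 2 and 18 of 28 products lower there too, with a median of -0.09 beside 0.01. With 2 arrays each this is a description without a test. The order of the products also depends on the 75th percentile by which each array was scaled. It was a signal of 155.3 and 111.2 in replicates 1 and 2 of Spink3-/-, 138.3 and 127.7 in Spink3+/+, and 141.6 and 118.0 in Spink3-/-XKI/+. How far this scaling sets the order was not tested. The 2 Spink3-/- arrays also lay in different slide rows, so replicate and row cannot be told apart in that genotype.

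**Figure D3:**
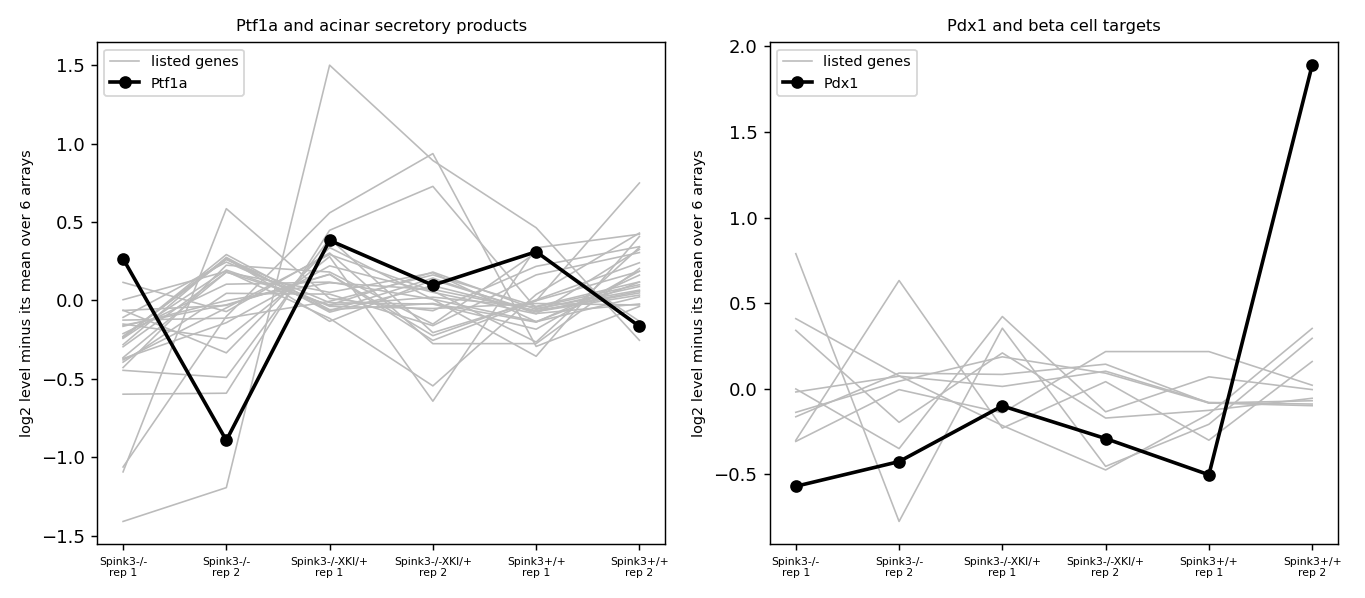
Levels on each of the 6 arrays, as log2 differences from the mean of each gene over the arrays. Ptf1a (black) is shown among the tested acinar products, with Spink3 left out (left, grey). Pdx1 (black) is shown among 9 beta cell targets (right, grey). Lines join the arrays only to make a gene easy to follow. The low point of Ptf1a in replicate 2 of Spink3-/- and the high point of Pdx1 in replicate 2 of Spink3+/+ have no counterpart in most of the grey lines.

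All 10 genes listed as dependent on MIST1, which serve granule transport and the secretory apparatus, were tested, with medians of -0.03, -0.25 and 0.19. In Spink3-/-XKI/+ against Spink3+/+ 9 of 10 were negative, from Atp2c2, a Golgi calcium pump, at -0.68 to Rab27b at 0.00. The extremes were Rab26, a granule GTPase, at -0.51 and Atp2c2 at 0.42 in Spink3-/- against Spink3+/+, and Rab27b at -0.36 and Atp2c2 at 1.10 in Spink3-/- against Spink3-/-XKI/+. The 9 beta cell targets of PDX1 had medians of 0.04, 0.11 and -0.03. G6pc2 was highest in Spink3-/- against Spink3+/+ at 0.24. The extremes were Pcsk1 at -0.45 and Ins1 at 0.23 in Spink3-/-XKI/+ against Spink3+/+, and Iapp at -0.32 and Pcsk1 at 0.59 in Spink3-/- against Spink3-/-XKI/+.

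Summed signals of marker genes are given beside these values. Each sum is carried mostly by its brightest genes, so it does not measure the share of a cell type, and single markers can differ from it. All 6 acinar markers were above background on every array, with summed signals of 6703 and 9356 in Spink3-/-, 7803 and 8386 in Spink3-/-XKI/+, and 7403 and 8531 in Spink3+/+, in units of the 75th percentile. The highest and the lowest sums were both Spink3-/- samples, in the same order as the levels of Bhlha15, Rbpjl and Nr5a2 there. The 75th percentile itself was a signal of 155.3 and 111.2 in replicates 1 and 2 of Spink3-/-, and these gaps depend on dividing by it. Before that division the Bhlha15 signals were 2235.9 and 2242.5, and those of Rbpjl A_52_P574759 were 13490 and 10654. Those of Nr5a2 A_51_P514449 were 2903.9 and 3168.9. A difference in acinar content was not tested. The 7 endocrine markers, all above background, summed to 2532 and 2876 in Spink3-/-, 3083 and 2993 in Spink3-/-XKI/+, and 2628 and 2631 in Spink3+/+. The duct markers, with 5 to 7 of 7 above background, summed to 29.2 and 31.4 in Spink3-/-, 26.5 and 32.9 in Spink3-/-XKI/+, and 24.3 and 28.2 in Spink3+/+.

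Genes of neighbouring tissue that also use GATA factors or NR5A2 varied between samples. The 6 liver markers, of which 4 to 6 were above background, summed to 56.0 and 51.9 in Spink3-/-, 25.7 and 32.7 in Spink3-/-XKI/+, and 24.3 and 25.3 in Spink3+/+. Those of smooth muscle and visceral mesenchyme, with 4 to 6 of 6 above background, summed to 121.7 and 60 in Spink3-/-, 83.7 and 275.5 in Spink3-/-XKI/+, and 45.1 and 57.4 in Spink3+/+. The 5 erythroid markers, 4 or 5 of them above background, summed to 600.2 and 559 in Spink3-/-, 436 and 344 in Spink3-/-XKI/+, and 1182 and 549 in Spink3+/+. Of 5 intestinal markers 2 were above background on every array, and of 5 stomach markers 1 to 3, with sums of at most 8.9 and 0.98. The part of these cells in the members' levels was not tested.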

How the data were processed

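Total RNA of 6 pancreas samples was hybridised to 1-colour Agilent arrays, 1 per sample. The deposited intensity values are, per the file headers, background-subtracted processed signals on a linear scale, made with Agilent Feature Extraction 10.7.3.1 per the submitters' processing notes. The deposited series table held the same intensity for every spot, uncentred, with column medians of 15.2 to 19.9.

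The log2 signal minus the 75th percentile of the array's non-control spots was computed, spots marked as outliers were left out, and spots of 1 probe were averaged. The 75th percentile was a signal of 111.2 to 155.3. A probe was tested if both arrays of some genotype had it well above background, as 24820 of 55681 (44.6%) did. Names came from a RefSeq table for 26762 probes through their accession, for 3819 through the symbol and for 639 through a former symbol; 2044 have only the file's name and 22417 no gene name. The test was limma's moderated one (version 3.58.1, R 4.3.3, two-sided), with genotype means fitted to all 6 arrays and 3 residual degrees of freedom, and p-values were adjusted over all tested probes by the Benjamini-Hochberg method. Differences of listed genes come from the brightest tested probe of each gene. The fit was tested on simulated data. Python 3.11.15 with matplotlib 3.10.9 drew the figures.

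All 6 arrays lay on 1 slide with 1 scan date, in 2 rows: both Spink3+/+ arrays and replicate 1 of Spink3-/- in the first, the other 3 in the second. The members, the gene lists, the markers and the alternatives were chosen with earlier results of these data known. Genes are named by this rule: every probe of the members, Spink3, for each list its called genes and its lowest and highest difference among genes above background on all arrays, and for each member the 3 genes nearest to it. Rbpj, Mecom, Prox1, Ctrc within Spink3-/- and Slc2a2 within Spink3+/+ were named after their values were seen. Some genes that the rule picks are not reported here. Motifs were searched in RefSeq promoters of build GRCm38.p6.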

Additional observations from a re-analysis of the deposited data

How the results depend on the processing

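None of the 9 probes was called under any of the 11 alternatives on all arrays or with any of the 6 arrays left out; the lowest adjusted p was 0.3769 and 0.1326. Of 291 differences under the alternatives on all arrays 280 kept their direction and 11 did not. Many of the 280 could not reverse, since the filters on dim probes, gene level, replicate block and series table leave a probe's difference unchanged. The same holds for fitting only the compared genotypes, so the 280 overstate how steady the directions were. With an array left out, 140 of 162 kept their direction and 22 did not, and comparisons without that array's genotype could not change. The cause of the reversals was not tested. With spike-in scaling, which moved the median of all probes in Spink3-/- against Spink3+/+ to 0.11, Gata4 was 0.023 and Rbpjl A_55_P1988689 0.082 in that comparison, and Nr5a2 A_51_P514449 was 0.028 in Spink3-/- against Spink3-/-XKI/+. With the slide row as a block, Ptf1a was 0.19 and Nr5a2 A_55_P2142908 -0.044 in Spink3-/- against Spink3+/+, Gata6 -0.12 and Nr5a2 A_51_P514449 0.24 in Spink3-/- against Spink3-/-XKI/+, and Rbpjl A_52_P574759 -0.083 in Spink3-/-XKI/+ against Spink3+/+. In the last comparison quantile normalization gave -0.016 for Rbpjl A_52_P574759, normexp background correction -0.00038 for Gata6, and the 75th percentile over spots above background on all arrays -0.0090 for Gata6. The block tests Spink3-/- through 1 array a row, since Spink3+/+ lay in the first row and Spink3-/-XKI/+ in the second.

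With 1 array left out, a remaining single array being taken to vary as the other genotypes do, Spink3-/- against Spink3+/+ ran from -0.97 to 0.19 for Ptf1a, -2.39 to 0.0048 for Pdx1, -0.26 to 0.10 for Gata4, -0.084 to 0.32 for Gata6, -0.54 to 0.070 and -0.044 to 0.63 for Nr5a2 A_51_P514449 and A_55_P2142908, and -0.31 to 0.059 and -0.20 to 0.15 for Rbpjl A_52_P574759 and A_55_P1988689. Spink3-/-XKI/+ against Spink3+/+ ran from -0.070 to 0.41 for Ptf1a, -2.09 to 0.31 for Pdx1, -0.37 to 0.20 for Bhlha15, -0.018 to 0.089 for Gata6, and -0.13 to 0.25 and -0.39 to 0.018 for the same Rbpjl probes. Spink3-/- against Spink3-/-XKI/+ ran from -1.13 to 0.026 for Ptf1a, -0.12 to 0.28 for Gata6, -0.37 to 0.24 for Nr5a2 A_51_P514449 and -0.041 to 0.36 for Rbpjl A_55_P1988689. Without a change of sign, it ran from -0.33 to -0.042 for Rbpjl A_52_P574759, and Spink3-/-XKI/+ against Spink3+/+ from -0.35 to -0.16 for Nr5a2 A_55_P2142908.

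Among all probes, 11 were called in Spink3-/- against Spink3+/+ (4 higher, 7 lower), but 1 with normexp, 2 with the percentile over spots above background on all arrays, 0 with no filter on dim probes, 1 with the filter on all 6 arrays, 5 at gene level, 1 with only the 2 genotypes fitted, 1 with the replicate block, 0 with the slide row as a block, and 0 to 9 with an array left out. In Spink3-/-XKI/+ against Spink3+/+ 2 were called, both lower, but 14 with quantile normalization (7 higher, 7 lower), 12 with spike-in scaling (4 higher, 8 lower), 0 with no filter, 1 with the filter on all 6 arrays, 1 at gene level, 0 with the slide row as a block, and 1 to 8 with an array left out. In Spink3-/- against Spink3-/-XKI/+ limma called 0 (1614 at an unadjusted p under 0.05), but 9 with quantile normalization, 7 with spike-in scaling and 1 at gene level. Same-numbered samples deviated together with correlations of -0.04, 0.0068 and 0.19. With 2 arrays a genotype these values cannot show whether the samples were paired. The replicate block changed the call of no member. Values from the series table repeat the reported ones, since its numbers are the same. Signal over background limits the dim probes, Nr5a2 A_55_P2142908 and Pdx1, most.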
